A study of Mus musculus with 24 samples.

Results

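The 10 receptors and coreceptors of the BMP and TGF-beta family described here were Acvrl1, Acvr1, Bmpr1a and Tgfbr1 (type I receptors), Bmpr2, Acvr2a, Acvr2b and Tgfbr2 (type II receptors), and Eng and Tgfbr3 (coreceptors). They were chosen by symbol, and each had 1 entry among the 48820 entries of each of 4 count tables. All 10 passed the filter on low counts in every comparison. RNA-seq counts were available for 24 libraries from the mouse liver, 3 in each of 8 groups. Sorted liver macrophages and sorted endothelial cells (ECs) came from mice of 8 to 10 weeks and whole livers from mice of 12 weeks.

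Gdf2/Bmp10 HSC-KO mice (BMP9/10 HSC-KO in the labels) carry floxed Gdf2 and Bmp10 alleles that Lrat Cre deletes in hepatic stellate cells (HSCs). They were compared with control mice in macrophages, in ECs and in livers. Smad4 cKO mice carry floxed Smad4 alleles deleted by Vav1 Cre, which is active in all hematopoietic cells and not only in Kupffer cells (KCs, the resident liver macrophages), and their macrophages were compared with those of floxed Smad4FF controls. The background was C57BL/6 in the labels and C57BL/6J in the study's methods. Macrophages were gated as CD45+Ly6C-F4/80+CD64+ cells and ECs as CD45-CD31+ cells, and a whole liver mixes hepatocytes with all other liver cells. In such bulk libraries, fewer cells of a type and less RNA per cell cannot be told apart.

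Ligands of this family bind a complex of type II receptors, which are constitutively active kinases, and type I receptors, which the type II receptors phosphorylate. ALK1 (Acvrl1) is the type I receptor for which GDF2, also known as BMP9, and BMP10 have high affinity, and endoglin (Eng) presents both ligands to it on ECs. ALK5 (Tgfbr1) with TGFBR2 is the complex for TGF-beta ligands, ALK3 (Bmpr1a) binds other BMPs, ALK2 (Acvr1) does so too and binds GDF2 with low affinity, and betaglycan (Tgfbr3) presents TGF-beta and inhibin. BMP receptors signal through SMAD1, SMAD5 and SMAD9 and TGF-beta receptors through SMAD2 and SMAD3, each with SMAD4.

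The libraries held 60911527 to 110879155 counts. The deleted genes were low where the labels place the deletion. Gdf2 was at 18.4, 9.38 and 22.5 CPM (counts of a gene as a share of its library, scaled to a common total) in control livers and at 3.84, 2.12 and 2.63 CPM in Gdf2/Bmp10 HSC-KO livers. Bmp10 was at 3.28, 2.72 and 1.99 CPM in control livers and at 0.0938, 0.262 and 0.111 CPM in Gdf2/Bmp10 HSC-KO livers. Smad4 was at 40.1, 35.2 and 42.8 CPM in control macrophages and at 17.2, 12.6 and 15.4 CPM in Smad4 cKO macrophages. The summed CPM of 13 endothelial markers, as a percentage of its mean in control ECs, was 85.4 to 106% in all EC libraries. In macrophages it was 0.354 to 2.13% in controls and 0.0882 to 0.426% in Gdf2/Bmp10 HSC-KO mice, but 3.72 to 13% in Smad4FF controls and 9.86 to 13.1% in Smad4 cKO mice. The macrophage libraries of the Smad4 experiment thus held more endothelial transcripts than those of the other experiment, and the receptors this touches are named below. The summed CPM of 8 macrophage markers was 0.0684 to 0.0845% of the control macrophage mean in control ECs and 0.00881 to 0.0165% in Gdf2/Bmp10 HSC-KO ECs.

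In the GENCODE vM21 annotation of GRCm38, all 10 are protein-coding genes. The type I receptors lie at chr15:101128522-101145336 (Acvrl1, plus strand), chr2:58388644-58567157 (Acvr1, minus), chr14:34410734-34503341 (Bmpr1a, minus) and chr4:47353222-47414931 (Tgfbr1, plus). The type II receptors lie at chr1:59763400-59879014 (Bmpr2, plus), chr2:48814109-48903269 (Acvr2a, plus), chr9:119402118-119434995 (Acvr2b, plus) and chr9:116084293-116175360 (Tgfbr2, minus). Eng lies at chr2:32646595-32682669 (plus) and Tgfbr3 at chr5:107106570-107289629 (minus). Exons of Eng share 61 bases with Fpgs on the opposite strand, and other overlaps, except that of Acvr2a given below, were with genes of at most 31 counts.

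To compare receptors with each other, CPM were divided by the exon length of each gene in kb. In control macrophages of the Gdf2/Bmp10 experiment, Acvrl1 was the most abundant of the 10, at 38.8 to 46.8 CPM per kb. Tgfbr2 (10.3 to 16.5), Eng (3.86 to 15.9) and Tgfbr1 (6.92 to 11.3 CPM per kb) came next, and the ranges of these 3 overlapped. Bmpr2 and Bmpr1a followed at 2.56 to 3.52 and 1.55 to 2.88 CPM per kb, with overlap. Acvr1, Acvr2b and Acvr2a were at 1.01 to 1.44, 0.91 to 1.44 and 0.217 to 0.612 CPM per kb, and only the first pair overlapped. Tgfbr3 came last, at 0 to 0.107 CPM per kb, with 0 counts in 1 of the 3 libraries, which allows a level of up to 3 counts. Among the 4 type I receptors, Acvrl1 therefore made up 76.6% ± 5.7 (SD, n = 3) of the summed CPM per kb in control macrophages.

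Control ECs had another order. Eng stood far above the rest at 600 to 827 CPM per kb, followed by Tgfbr2 (21.8 to 23.2) and Bmpr2 (13.1 to 16.9 CPM per kb). Acvrl1 and Tgfbr3 overlapped at 11.2 to 12.6 and 8.57 to 12.8 CPM per kb. Acvr1 was at 5.66 to 7.17, Tgfbr1 at 2.24 to 2.42 and Bmpr1a, the lowest, at 0.1 to 0.187 CPM per kb. The activin type II receptors Acvr2a and Acvr2b overlapped at 1.29 to 1.64 and 0.765 to 1.55 CPM per kb. In control livers Eng was again the highest (29.5 to 32.7 CPM per kb). Bmpr1a, the lowest in ECs, was second by mean (4.88 to 5.76 CPM per kb), and its range overlapped those of Tgfbr1 and Acvr2a. Acvr2a, Tgfbr1, Tgfbr2 and Acvr1 lay between 3.35 and 5.08 CPM per kb in livers, each overlapping its neighbour in this order. Tgfbr3 (2.05 to 2.82), Bmpr2 (1.46 to 1.89), Acvrl1 (1.29 to 1.61) and Acvr2b (0.395 to 1.19 CPM per kb) were lowest, and the ranges of Bmpr2 and Acvrl1 overlapped.

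**Figure D1:**
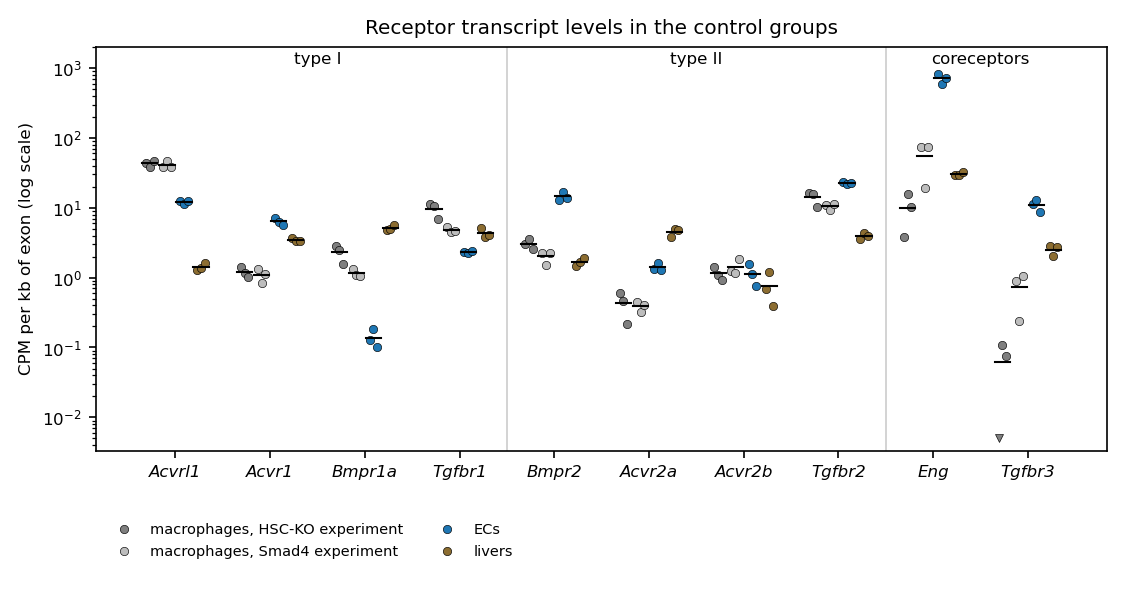
Level of each receptor in the control groups, in CPM per kb of exon on a log scale, with 1 point per library, a bar at the mean of the 3 libraries and a triangle at the lower edge for the 1 library with 0 counts. Acvrl1 leads in macrophages of the Gdf2/Bmp10 experiment (38.8 to 46.8 CPM per kb), Eng in ECs (600 to 827 CPM per kb), and Bmpr1a is lowest in ECs. In Smad4FF control macrophages, whose libraries hold more endothelial transcripts, Eng has the highest mean (55.7 CPM per kb) and Acvrl1 the next (41.1), with overlap.

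Between control ECs and control macrophages, 9 of the 10 receptors passed the test (adjusted p below 0.05), where 49.1% of all 16160 genes tested did. Of these, 6 were higher in ECs (24.5% of all genes) and 3 in macrophages (24.6%). DEGs, which also passed an absolute log2 fold change of 1, were 8 of the 10 and 35.9% of all genes. Eng was higher in ECs by 6.24 on the log2 scale (SE 0.58, adjusted p = 0.00014), and Tgfbr3 by 7.58 (SE 0.96, adjusted p = 0.00061). Endothelial transcripts at control EC levels would carry 65.5 to 95.7% of Eng and at least 194% of Tgfbr3 in these control macrophages. Their part in both fold changes was not tested. Acvr1 (2.50), Bmpr2 (2.36), Acvr2a (1.81) and Tgfbr2 (0.78) were also higher in ECs. The 3 that were higher in macrophages were all type I receptors. The log2 fold change of ECs over macrophages was -1.73 for Acvrl1 (SE 0.14, adjusted p = 6.3e-05), -1.95 for Tgfbr1 (SE 0.20, adjusted p = 0.0002) and -3.97 for Bmpr1a (SE 0.36, adjusted p = 0.00012). Acvr2b differed by 0.09 (95% interval -0.66 to 0.84). One mouse gave a library to both groups, and without its macrophage library 9 receptors passed as well.

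Against control livers, 9 receptors passed as well, beside 72.1% of all genes, 6 higher in ECs (33%) and 3 lower (39.1%), and 7 were DEGs (59.9%). The same control EC libraries enter both comparisons. Eng (log2 fold change 4.48), Bmpr2 (3.07), Acvrl1 (3.04), Tgfbr2 (2.45), Tgfbr3 (2.06) and Acvr1 (0.83) were higher in ECs. Bmpr1a (-5.29), Acvr2a (-1.72) and Tgfbr1 (-0.95) were higher in livers, the last not with Xist as a covariate (adjusted p = 0.07). Bmpr1a thus had the most negative fold change of the 10 in both comparisons.

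Promoters are shown for the 3 receptors that were DEGs in Gdf2/Bmp10 HSC-KO macrophages and for Eng, which fell in ECs and livers. RefSeq (GRCm38.p6) gave a promoter, from 250 bases before to 50 after the start site, for 8 of the 10 receptors (not Acvrl1 or Tgfbr3), and for Tgfbr1 the 1 of 2 at the start of the gene is printed. Each is printed 5′ to 3′ on the strand of its gene, and capitals mark matches, on either strand, to the core of the BMP response element (GGCGCC), a Smad site (GTCTG), an ETS site (CCGGAAG) or an Sp1 site (GGGCGG). The coordinates are chr4:47352972-47353271 on the plus strand for Tgfbr1, chr9:116175314-116175613 on the minus strand for Tgfbr2, chr14:34502497-34502796 on the minus strand for Bmpr1a and chr2:32646345-32646644 on the plus strand for Eng.
Tgfbr1: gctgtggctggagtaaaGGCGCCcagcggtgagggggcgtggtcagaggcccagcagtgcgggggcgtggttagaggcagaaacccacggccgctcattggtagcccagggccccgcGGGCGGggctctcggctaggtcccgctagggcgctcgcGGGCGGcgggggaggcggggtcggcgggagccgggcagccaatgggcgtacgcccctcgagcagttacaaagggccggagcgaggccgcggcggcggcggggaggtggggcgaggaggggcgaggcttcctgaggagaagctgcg
Tgfbr2: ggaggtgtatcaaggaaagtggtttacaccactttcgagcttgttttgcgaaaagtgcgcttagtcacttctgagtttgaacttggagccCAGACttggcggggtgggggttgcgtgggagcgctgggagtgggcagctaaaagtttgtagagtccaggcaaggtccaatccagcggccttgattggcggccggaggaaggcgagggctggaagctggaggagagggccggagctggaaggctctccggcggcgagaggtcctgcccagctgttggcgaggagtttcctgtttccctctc
Bmpr1a: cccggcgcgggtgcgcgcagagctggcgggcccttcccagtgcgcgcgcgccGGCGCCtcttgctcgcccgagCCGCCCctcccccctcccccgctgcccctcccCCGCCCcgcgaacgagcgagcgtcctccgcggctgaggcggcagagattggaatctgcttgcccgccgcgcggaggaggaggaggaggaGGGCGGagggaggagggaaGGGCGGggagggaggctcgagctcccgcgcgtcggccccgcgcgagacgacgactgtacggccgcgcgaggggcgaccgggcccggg
Eng: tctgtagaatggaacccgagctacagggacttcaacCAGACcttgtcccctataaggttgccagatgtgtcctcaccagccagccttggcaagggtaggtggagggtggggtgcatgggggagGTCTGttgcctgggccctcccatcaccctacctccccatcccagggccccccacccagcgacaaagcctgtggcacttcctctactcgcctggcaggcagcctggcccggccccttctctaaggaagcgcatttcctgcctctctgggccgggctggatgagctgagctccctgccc
The printed Tgfbr1 promoter held GGCGCC at -233 from the start site and GGGCGG at -133 and -95, and the Bmpr1a promoter held GGCGCC at -198 and 4 matches to GGGCGG. The Tgfbr2 promoter had 1 match, to GTCTG on the reverse strand at -160, and Eng had 2, to GTCTG at -127 and on the reverse strand at -214. GGCGCC was found in 11.9%, GTCTG in 49.6%, GGGCGG in 35.7% and CCGGAAG in 8.9% of all 32851 promoters of this length. GTCTAGAC, the palindromic Smad site, was also searched, had no match in these 4 and was found in 0.2% of promoters, and no motif contains another. GC content was 74.7% in the printed Tgfbr1 promoter, 79.3% in Bmpr1a, 63.3% in Eng and 59% in Tgfbr2, where the median of all promoters was 52.7%. The second Tgfbr1 promoter (chr4:47385966-47386265, plus strand) had a GC content of 52% and 1 match, to GTCTG on the reverse strand at -203. These matches describe letters in a window and were not tested as binding sites.

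To examine how loss of the ligands from HSCs bore on the receptors of macrophages, Gdf2/Bmp10 HSC-KO macrophages were compared with control macrophages. The TGF-beta receptors Tgfbr1 and Tgfbr2 and the type I receptor Acvr1 rose, Bmpr1a fell, and Acvrl1 and Bmpr2 were near their control levels. Of the 10 receptors, 4 passed, 3 higher and 1 lower, where 19.2% of all 16337 genes passed (9.29% higher and 9.87% lower). The receptors Tgfbr1, Tgfbr2 and Bmpr1a were DEGs, as were 11.7% of all genes. The median log2 fold change of the 10 was 0.54, and that of all genes 0.04.

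Tgfbr1, the type I receptor for TGF-beta, was at 70.5, 65.8 and 44.2 CPM in control macrophages and at 437, 488 and 296 CPM in Gdf2/Bmp10 HSC-KO macrophages. The lowest mutant library was over 4 times the highest control library. The rise was 2.76 on the log2 scale (SE 0.25, adjusted p = 0.00038), or 6.77-fold. Its partner Tgfbr2 was at 129, 120 and 82.3 CPM in controls and at 296, 332 and 243 CPM in mutants, with no overlap, a log2 fold change of 1.40 (SE 0.20, adjusted p = 0.003). Both genes of the TGF-beta receptor pair were thus higher in every mutant library than in every control library.

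Bmpr1a, a type I receptor of BMP2, BMP4 and BMP6, was at 17.5, 15 and 9.59 CPM in controls and at 3.26, 2.09 and 5.06 CPM in mutants. It fell by 2.02 on the log2 scale (SE 0.37, adjusted p = 0.0084), 4.06-fold, with no overlap between the groups. Acvr1 rose from 6.65, 5.34 and 4.79 CPM to 9.14, 8.66 and 10.3 CPM (log2 fold change 0.74, SE 0.20, adjusted p = 0.036). The call of Acvr1 was lost when control replicate 2 or 3 or any 1 mutant replicate was left out (adjusted p 0.065 to 0.12), with Xist as a covariate (0.064), with the replicate block (0.07) and with a filter of 1 count (0.053). With the endothelial marker sum as a covariate, which also lowered the count of all genes from 3129 to 801, Tgfbr1 passed (log2 fold change 2.23, adjusted p = 0.015), but Tgfbr2 (1.03, adjusted p = 0.12), Bmpr1a (-1.78, adjusted p = 0.12) and Acvr1 (0.66, adjusted p = 0.36) did not. In all, the groups of 4 receptors did not overlap, where those of 40.3% of all genes did not.

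Acvrl1, the receptor of the deleted ligands, was at 178, 156 and 195 CPM in controls and at 175, 203 and 184 CPM in mutants. The 2 groups overlapped, and the 95% interval of the log2 fold change ran from -0.21 to 0.38 around 0.09. Bmpr2, its usual type II partner, was at 51.5, 59.8 and 45 CPM in controls and at 56, 53.3 and 45.3 CPM in mutants (log2 fold change -0.02, interval -0.35 to 0.32). Acvr2a (log2 fold change 0.59, interval -0.33 to 1.52) and Acvr2b (0.49, interval -0.08 to 1.05) did not pass.

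The balance of type I receptors shifted with Tgfbr1. Acvrl1 was 76.6% ± 5.7 of the summed CPM per kb of the 4 in control macrophages and 40.9% ± 5.43 in Gdf2/Bmp10 HSC-KO macrophages (SD, n = 3). Tgfbr1 was 17.1% ± 4.22 in controls and 56.7% ± 6.18 in mutants. Tgfbr1 had 0.148 to 0.275 times the CPM per kb of Acvrl1 in the 3 control libraries and 1.05 to 1.63 times in the 3 mutant libraries. The summed level of the 4 type I receptors was 53.1 to 59.2 CPM per kb in controls and 90.7 to 130 in mutants. Among the 4 type II receptors, Tgfbr2 made up 75.2% ± 1.5 in controls and 87.5% ± 1.16 in mutants, and Bmpr2 16.4% ± 2.27 and 7.11% ± 0.546.

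Eng did not pass in macrophages, at 15, 60.8 and 40.5 CPM in controls and 62.1, 45.5 and 67.2 CPM in mutants (log2 fold change 0.59, SE 0.44, adjusted p = 0.4). In the controls, Eng was lowest in the library with the lowest endothelial marker sum and highest in that with the highest. At the Eng level of control ECs, the endothelial transcripts of these libraries would carry 65.5 to 95.7% of the Eng measured in controls but 4.48 to 18.5% of that in mutants. Where the Eng of the mutant libraries came from was not tested. Tgfbr3 was at 0 to 0.659 CPM in controls and 0.103 to 0.285 CPM in mutants (adjusted p = 0.64). For Tgfbr1 and Tgfbr2, endothelial transcripts at control EC levels would carry at most 0.463 and 3.1% of the level in any library of this experiment.

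**Figure D2:**
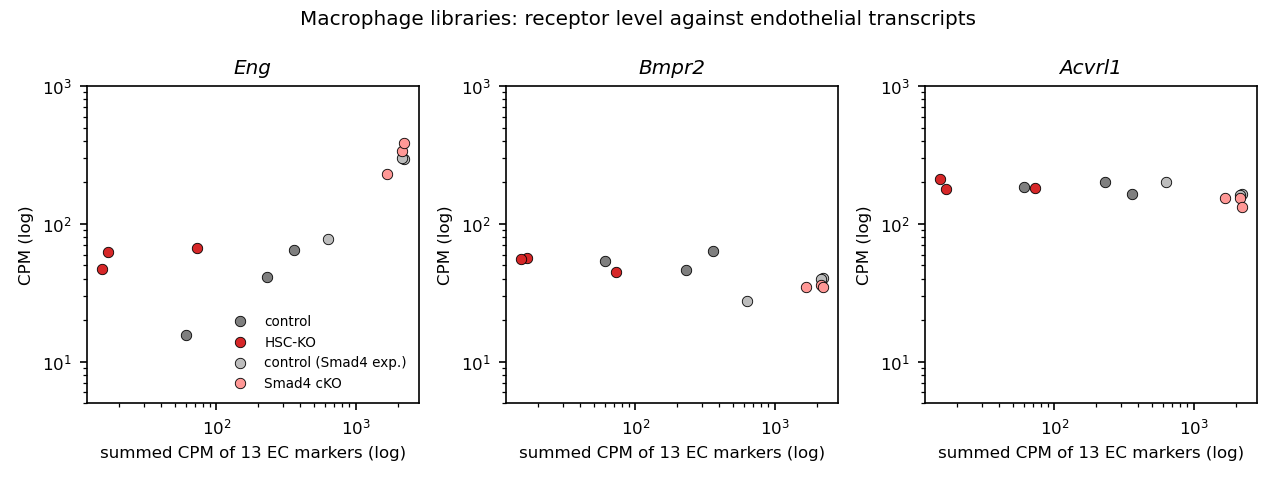
CPM of Eng, Bmpr2 and Acvrl1 in each of the 12 macrophage libraries against the summed CPM of 13 endothelial markers, both on log scales, with points coloured by group. With all 24 libraries scaled together, Eng is highest (77.2 to 383 CPM) in the Smad4 experiment, whose libraries hold more endothelial transcripts, and is at 47.4 to 66.6 CPM in Gdf2/Bmp10 HSC-KO macrophages against 15.6, 64.4 and 41.4 CPM in the controls, while Acvrl1 lies between 133 and 212 CPM in all 12 libraries.

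Among the other genes of the pathway, targets of BMP signalling such as Id1 and Id3 fell in the same macrophages. The list of targets also holds Ski, a repressor of SMAD transcription. Of 7 targets tested, 5 were lower and 1 higher. Id3, a target of ALK1 signalling, was at 1160, 955 and 992 CPM in controls and at 1.8, 2.02 and 6.52 CPM in mutants (log2 fold change -8.23, adjusted p = 0.00018). Id1 (log2 fold change -7.56) and Hey1 (-5.51) fell, and Ski, which represses SMAD transcription, rose by 1.19 (adjusted p = 0.0017).

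Of 10 Smad pathway genes, 4 were lower and 1 higher. Smad9 was at 0.856 to 1.9 CPM in controls and had 0 counts in all 3 mutant libraries, at least 38.1-fold lower against 3 counts per library. The inhibitory Smad6 and Smad7 fell by 4.17 and 1.77 on the log2 scale, and Smad1 by 0.56. Smad3, which transduces TGF-beta signals, rose by 1.70 (SE 0.19, adjusted p = 0.0011).

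Of 9 genes whose products act on or with the receptors, 4 were higher and 1, Gipc1, lower (log2 fold change -0.67). Mmp14, a membrane protease, rose by 2.89 on the log2 scale, the endocytic adaptor Dab2 by 1.79, the SMAD anchor Zfyve9 by 1.11 and Fkbp1a, which binds type I receptors, by 0.74. Of 6 other receptors tested, Nrp1 rose by 1.23 and Lrp1 fell by 0.96. Of 12 ligands tested, Tgfb1 was the one that passed, rising by 0.99 on the log2 scale (SE 0.26, adjusted p = 0.033), from a mean of 12.8 to 25.4 CPM. The summed CPM of 8 macrophage markers was 93.9 to 105% of the control mean in controls and 41.4 to 47.4% in mutants. The KC genes Clec4f (a mean of 12200 CPM in controls and 9.37 CPM in mutants) and Vsig4 (3750 and 24.2 CPM) made up most of that difference. Csf1r, Cd68, Adgre1 and Tyrobp also had lower means in mutants (Csf1r 5650 and 3230 CPM), and Lyz2 was at 8140 and 8950 CPM and Fcgr1 at 330 and 340 CPM. Of 4 monocyte and neutrophil markers, Ccr2 was at a mean of 7.12 CPM in controls and 68.1 CPM in mutants, Ly6c2 at 0.438 and 2.82 CPM and S100a8 at 0.589 and 0.122 CPM, while Ly6g had 0 counts in all 6 libraries. The sum of 4 lymphocyte markers was 7.2 to 10.1 CPM in controls and 5.97 to 19.9 CPM in mutants, and that of 8 stellate markers 103 to 183 and 65.7 to 159 CPM, with members in both directions in each list (Ncr1 at a mean of 0.363 and 4.39 CPM, Cd79a at 7.29 and 4.89 CPM, Dcn at 21 and 49.4 CPM, Ecm1 at 104 and 25.9 CPM). The part of these marker differences in the receptor values was not tested.

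Smad4 cKO macrophages were compared with their controls to ask which receptor changes also appear when the common SMAD is lost from hematopoietic cells. Tgfbr1 rose and Bmpr1a fell here too. Of the 10 receptors, 2 passed, 1 in each direction, where 7.74% of all 17517 genes passed (3.71% higher and 4.03% lower), and both were DEGs, as were 5.43% of all genes. The median log2 fold change of the 10 was 0.29.

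Tgfbr1 was at 34.5, 29 and 29.7 CPM in controls and at 113, 82 and 112 CPM in Smad4 cKO macrophages. All mutant libraries were above all controls, by 1.72 on the log2 scale (SE 0.16, adjusted p = 0.0011), or 3.30-fold. Bmpr1a was at 8.35, 6.88 and 6.68 CPM in controls and at 2.28, 3.16 and 4.13 CPM in mutants (log2 fold change -1.20, SE 0.26, adjusted p = 0.031). That call was lost when any 1 control or mutant replicate 1 or 2 was left out (adjusted p 0.07 to 0.099). It was also lost with the endothelial marker sum as a covariate (adjusted p = 0.067) and with the replicate block (0.092), with the direction kept in each. Tgfbr2 was at 89.6, 73.9 and 92.4 CPM in controls and 119, 90.3 and 124 CPM in mutants, groups that overlapped (log2 fold change 0.38, interval 0.01 to 0.75, adjusted p = 0.23).

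Acvrl1 was at 162, 197 and 161 CPM in controls and at 154, 132 and 154 CPM in Smad4 cKO macrophages. These groups did not overlap, but the fold change did not pass (log2 -0.24, SE 0.13, adjusted p = 0.36). Groups of 3 receptors did not overlap, where those of 29.4% of all genes did not. Acvr1, Bmpr2, Acvr2a and Acvr2b had log2 fold changes of 0.32, -0.03, -0.11 and 0.25. Among the 4 type I receptors, Tgfbr1 was 10% ± 1.55 of the summed CPM per kb in controls and 30.1% ± 2.15 in mutants, and Acvrl1 85.2% ± 2.56 and 66.3% ± 1.39 (SD, n = 3).

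Eng was at 294, 76.2 and 300 CPM in controls and 337, 381 and 230 CPM in mutants, and its low control library was that with the low endothelial marker sum (3.72%). Endothelial transcripts at control EC levels would carry 99 to 139% of Eng, 119 to 196% of Tgfbr3 and 35.4 to 98.9% of Bmpr2 in the libraries of the Smad4 experiment. The levels of Eng and Tgfbr3 in these macrophages therefore cannot be told apart from endothelial transcripts, and how much of Bmpr2 was endothelial was not tested. The same figure was 28 to 72.2% for Acvr1, 16.4 to 48.7% for Acvr2a, 3.6 to 11.9% for Acvr2b, 0.967 to 5.13% for Acvrl1, 1.33 to 6.4% for Tgfbr1, 0.469 to 4.88% for Bmpr1a and 9.19 to 26.7% for Tgfbr2.

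Other pathway genes also moved in Smad4 cKO macrophages. Of 8 genes tested from the list of targets, 4 were lower and 1, the SMAD repressor Ski, was higher (log2 fold change 0.81). Id3 was at 2090, 2070 and 1930 CPM in controls and 372, 415 and 336 CPM in mutants (log2 fold change -2.44, adjusted p = 0.0001), and Id1 (-2.93), Hey1 (-2.96) and Id2 (-1.64) were also lower. Of 10 Smad pathway genes, Smad9 (0 counts in all 3 mutant libraries, at least 20.3-fold lower), Smad7 (log2 fold change -1.46) and the deleted Smad4 (-1.39) fell, and Smad3 rose by 1.60. Of 13 ligands tested, Tgfb3 fell by 2.05, and of 9 receptor partners Zfyve9 rose by 0.93. Of 7 other receptors, the lowest adjusted p was 0.37. The macrophage marker sum was 97.8 to 122% of the control mean of the first experiment in Smad4FF controls and 31.3 to 42.2% in Smad4 cKO mice, and its part in these values was not tested.

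The difference between the fold changes of the 2 macrophage experiments was itself tested over 12 libraries. 0 of the 10 receptors passed in edgeR's quasi-likelihood test, where 2.94% of all genes did. An unadjusted p below 0.05 was found for 2 receptors and 16.3% of all genes. In DESeq2, 2 receptors and 1277 of all genes passed. For Tgfbr1, the log2 fold change was higher in Gdf2/Bmp10 HSC-KO macrophages by 1.08 (interval 0.41 to 1.75, adjusted p = 0.092). For Tgfbr2 the difference was 1.06 (interval 0.47 to 1.65, adjusted p = 0.06). For Acvrl1, Bmpr2 and Bmpr1a it was 0.37 (-0.03 to 0.77), 0.06 (-0.44 to 0.55) and -0.78 (-1.80 to 0.25).

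The control macrophages of the 2 experiments also differed. Of the 10 receptors, 4 passed between them, 2 in each direction, beside 31.1% of all genes (14.8% higher and 16.2% lower in the Smad4 experiment). Eng was higher by 2.50 and Tgfbr3 by 3.59 on the log2 scale in the Smad4 experiment, whose libraries held more endothelial transcripts, and Tgfbr1 (-0.97) and Bmpr1a (-0.96) were lower. Acvrl1 differed by -0.05 (interval -0.36 to 0.27). The count was 1 to 3 when 1 library was left out. The calls of Eng (adjusted p 0.061 to 0.07), Tgfbr3 (0.052 to 0.14) and Bmpr1a (0.058 to 0.084) were each lost in 3 or more of these 6 fits.

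In ECs, the question was how the receptors of cells that also carry ALK1 differ without HSC-derived ligands. Acvrl1 rose and its coreceptor Eng fell, Acvr1 and Tgfbr3 fell, and Acvr2a and Tgfbr2 rose. Of the 10 receptors, 6 passed, 3 in each direction, where 20.1% of all 16053 genes passed (10.3% higher and 9.77% lower), and 5 were DEGs, as were 13.7% of all genes. The median log2 fold change of the 10 was -0.20, and groups of 8 receptors did not overlap, where those of 40.4% of all genes did not.

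Acvrl1 was at 62.1, 56.1 and 63.4 CPM in control ECs and at 235, 159 and 208 CPM in Gdf2/Bmp10 HSC-KO ECs. The lowest mutant library was over 2 times the highest control. The log2 fold change was 1.73 (SE 0.17, adjusted p = 0.00054), or 3.31-fold. Acvr1, the type I receptor ALK2, moved the other way, from 39.9, 35.7 and 32.1 CPM to 13, 10.1 and 10.8 CPM, and fell by 1.67 on the log2 scale (SE 0.16, adjusted p = 0.00054). Together these moved the share of Acvrl1 among the 4 type I receptors from 57.9% ± 2.44 to 90.3% ± 1.88 of the summed CPM per kb, and that of Acvr1 from 30.4% ± 2.76 to 4.53% ± 0.379 (SD, n = 3). Tgfbr1, at 17.2, 17.2 and 18.6 CPM in controls and 15.3, 18.7 and 15.6 CPM in mutants, had a log2 fold change of -0.10 (interval -0.43 to 0.23). Bmpr1a was at 0.747 to 1.39 CPM in controls and 0.538 to 0.562 CPM in mutants (log2 fold change -0.90, adjusted p = 0.19).

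Eng was at 3860, 2840 and 3420 CPM in control ECs and at 1490, 1110 and 1470 CPM in mutant ECs. It fell by 1.31 on the log2 scale (SE 0.22, adjusted p = 0.0053), 2.48-fold, and was still the most abundant of the 10 at a mean of 291 CPM per kb. Eng had 53.4 to 65.4 times the CPM per kb of Acvrl1 in control ECs and 6.7 to 7.47 times in mutant ECs. Tgfbr3 fell from 85.4, 98.4 and 65.9 CPM to 48.9, 38.8 and 35.2 CPM (log2 fold change -1.02, SE 0.19, adjusted p = 0.009). With scaling to library size alone, which moved the median of all genes by 0.30 in this comparison, 4 receptors were DEGs in place of 5. Both coreceptors were thus lower in every mutant EC library than in every control library.

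Among type II receptors, Acvr2a was at 8.6, 10.9 and 8.62 CPM in control ECs and at 20.9, 20.9 and 21.6 CPM in mutant ECs (log2 fold change 1.17, SE 0.15, adjusted p = 0.0019). Its exons share 446 bases with Orc4 on the opposite strand, which had 767 to 1928 counts in the 24 libraries. Whether the counting used strand is not given in the sources used here, and this limit holds for Acvr2a in every comparison. Tgfbr2 rose from 219, 209 and 219 CPM to 289, 331 and 356 CPM (log2 fold change 0.59, SE 0.13, adjusted p = 0.019). That call was lost when any 1 control or mutant replicate 2 or 3 was left out (adjusted p 0.054 to 0.068). Bmpr2 was at 271, 357 and 289 CPM in controls and 246, 258 and 242 CPM in mutants, groups that did not overlap (log2 fold change -0.30, interval -0.64 to 0.05, adjusted p = 0.21). Acvr2b had a log2 fold change of 0.55 (interval -0.28 to 1.39).

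**Figure D3:**
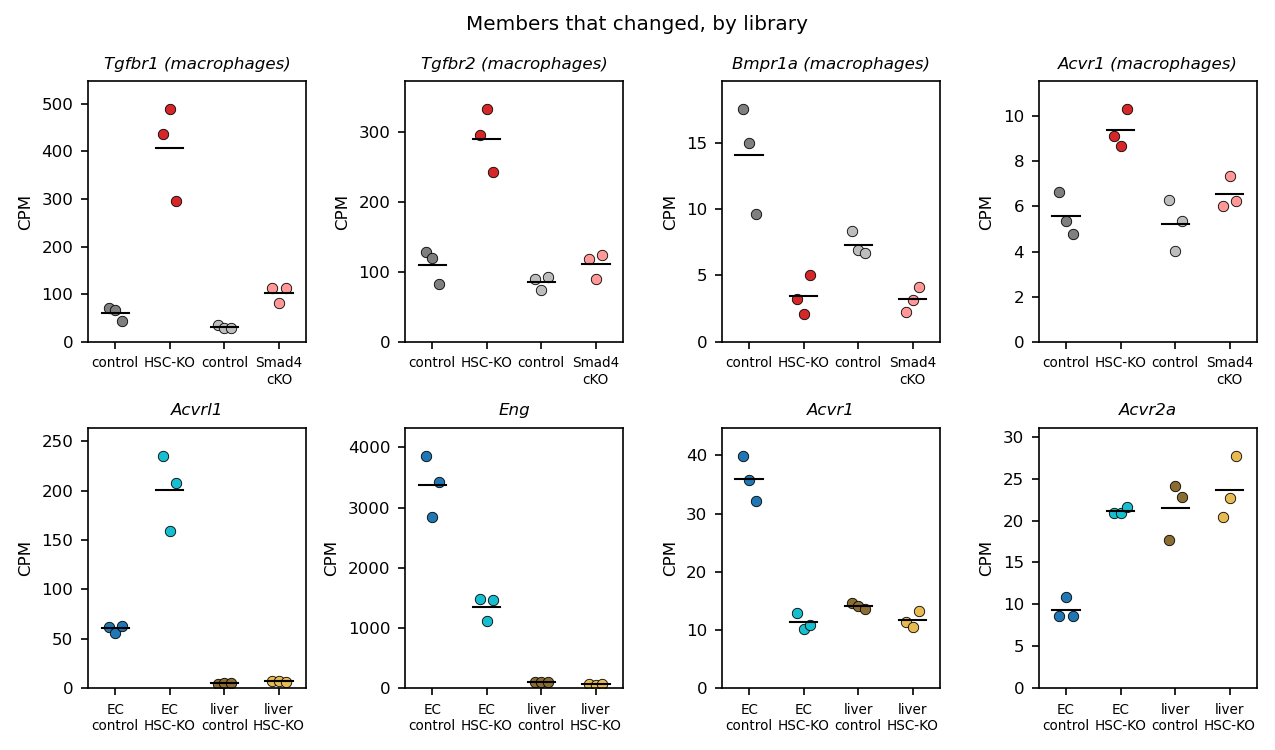
CPM by library of receptors that changed, with 1 point per library, a bar at the mean of 3 libraries and each axis starting at 0. The upper row shows macrophages of both experiments and the lower row ECs and livers, each pair scaled within its own comparison. Tgfbr1 rises and Bmpr1a falls in both macrophage experiments, and in ECs Acvrl1 (56.1 to 63.4 against 159 to 235 CPM) and Eng move in opposite directions.

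In the same ECs, 4 of 12 ligands tested were lower and 2 higher. Bmp2 fell from a mean of 463 to 14.3 CPM (log2 fold change -5.01, adjusted p = 0.0049) and Bmp6 from 76.2 to 5.95 CPM (-3.68, adjusted p = 6.1e-05), while Bmp4 rose by 1.86 and Gdf11 by 1.85. Gdf2 itself was at 1.03 to 2.94 CPM in control ECs and at 0 to 0.0698 CPM in mutants. The study names HSCs as the major liver source of GDF2. Stellate markers summed to 130 to 202 CPM in control and 99 to 127 CPM in mutant EC libraries, and their part in these Gdf2 counts was not tested. Inha, at 0.204 to 0.439 CPM in controls, had 0 counts in all 3 mutant libraries (at least 7.73-fold lower). Of 10 Smad pathway genes, Smad6 (log2 fold change -3.01), Smad7 (-1.80) and the low Smad9 fell, and Smad5 (1.63) and Smad3 (0.88) rose. Of 8 targets tested, Id2 (-2.28) and Id4 (-1.34) fell, and Atoh8 rose by 1.00. Id1 was at 37.9, 22.5 and 23 CPM in controls and 41.1, 26.2 and 26.2 CPM in mutants, and Id3 had a log2 fold change of -0.87 (adjusted p = 0.17), so neither passed.

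Of 9 receptor partners, 4 were lower and 2 higher. Arrb2, an arrestin that binds betaglycan, fell by 3.36 on the log2 scale, Mmp14 by 2.34, Dab2 by 1.34 and Gipc1, which binds the tail of endoglin, by 0.81. Lrg1, a secreted ligand of endoglin, rose by 3.52 (SE 0.74, adjusted p = 0.014), and Zfyve9 by 0.70. Of 8 other receptors, Neo1 rose by 1.11. The endothelial marker sum was 90.7 to 106% of the control mean in control ECs and 85.4 to 92.2% in mutants, and the stellate marker sum was 130 to 202 and 99 to 127 CPM. The 13 endothelial genes differed in direction, with Flt4 at a mean of 4330 CPM in controls and 1370 CPM in mutants, Ptprb at 4330 and 2230 CPM, Emcn at 205 and 2420 CPM and Pecam1 at 424 and 760 CPM. Among monocyte and neutrophil markers, Ly6c2 was at a mean of 0.128 CPM in controls and 59.6 CPM in mutants and Ccr2 at 0.042 and 0.0446 CPM, while S100a8 and Ly6g had 0 counts in all 6 libraries. The part of these marker differences in the receptor changes was not tested.

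Whether the response to Gdf2/Bmp10 deletion differed between ECs and macrophages was tested directly. Of the 10 receptors, 4 passed, 1 higher and 3 lower in ECs, where 15.4% of all genes passed (7.84% higher and 7.58% lower). The log2 fold change in ECs exceeded that in macrophages by 1.63 for Acvrl1 (SE 0.22, adjusted p = 0.00067). It was lower in ECs by 2.86 for Tgfbr1 (difference -2.86, SE 0.30, adjusted p = 0.00012), by 2.42 for Acvr1 (difference -2.42, SE 0.25, adjusted p = 0.00011) and by 1.91 for Eng (difference -1.91, SE 0.55, adjusted p = 0.039). Acvr1 passed with opposite signs in the 2 cell types. For Tgfbr2 the difference was -0.81 (interval -1.37 to -0.25, adjusted p = 0.055). The call of Eng was lost without 9 of the 12 libraries in turn. At control EC levels, endothelial transcripts would carry 65.5 to 95.7% of Eng in control macrophages and 4.48 to 18.5% in mutants. Their part in the Eng difference was not tested. Both cell types of 3 mice are among the 12 libraries. Without the macrophage libraries of those mice, which leaves 1 mutant macrophage library whose spread is assumed to be that of the other groups, these 4 receptors passed (adjusted p 0.0017 to 0.046).

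**Figure D4:**
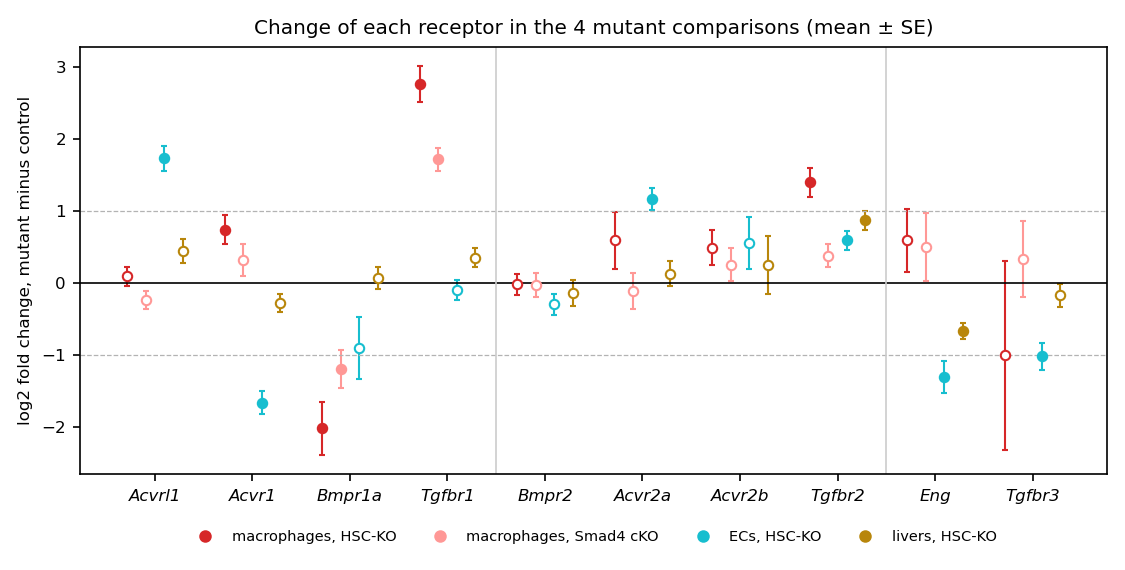
Log2 fold change of each receptor (mutant minus control, ± SE, 3 libraries per group) in the 4 comparisons. Filled points passed (adjusted p below 0.05), open points did not, and dashed lines mark a log2 fold change of 1 in either direction. Tgfbr1 rises in both macrophage comparisons (2.76 and 1.72), and Acvr1 moves in opposite directions in macrophages (0.74) and ECs (-1.67).

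In whole livers, Tgfbr2 rose and Eng fell, and the other 8 receptors did not pass. These 2 of 10 stand beside 2.83% of all 17118 genes that passed (1.24% higher and 1.59% lower). None was a DEG in edgeR's test or in DESeq2, where 2.48% of all genes were DEGs in edgeR. An unadjusted p below 0.05 was found for 4 receptors and 12.9% of all genes. Tgfbr2 was at 24.1, 30.7 and 27.7 CPM in control livers and at 49.5, 53.5 and 48.2 CPM in mutant livers (log2 fold change 0.87, SE 0.13, adjusted p = 0.014). Eng was at 100, 103 and 112 CPM in controls and at 71.3, 62.2 and 64.4 CPM in mutants (log2 fold change -0.67, SE 0.11, adjusted p = 0.025). Both had no overlap between groups and moved in livers with the same sign as in ECs.

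These 2 calls rest on few libraries. The call of Eng was lost when any 1 control or mutant replicate 1 or 2 was left out (adjusted p 0.064 to 0.12) and with the replicate block (0.068). That of Tgfbr2 was lost without control replicate 3 or mutant replicate 1 (adjusted p 0.068 and 0.063). Acvrl1 was at 4.55, 5.03 and 5.83 CPM in control livers and 7.27, 6.92 and 6.64 CPM in mutant livers, and Tgfbr1 at 27.5, 21.8 and 22.5 CPM and 30.5, 29.2 and 32.2 CPM. Neither pair of groups overlapped, but neither passed (log2 fold changes 0.44 and 0.35, adjusted p = 0.33 and 0.28). Groups of 5 receptors did not overlap, where those of 19.7% of all genes did not. Bmpr1a, Bmpr2, Acvr2a, Acvr2b, Acvr1 and Tgfbr3 had log2 fold changes between -0.28 and 0.25.

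Cell markers moved in the same livers. The endothelial marker sum was 2.65 to 3.25% of the control EC mean in control livers and 2.78 to 3.2% in mutants. Its 13 genes differed in direction, with Ptprb at a mean of 133 CPM in controls and 58.1 CPM in mutants, Flt4 at 53.9 and 15.3 CPM, Pecam1 at 39 and 74.8 CPM and Emcn at 3.8 and 34.3 CPM. The part of these in the fall of Eng was not tested. The macrophage marker sum was 0.99 to 1.63% of the control macrophage mean in controls and 0.194 to 0.316% in mutants, and the stellate sum was 436 to 563 and 725 to 815 CPM. The hepatocyte sum was 90.4 to 114% of its control mean in controls and 117 to 155% in mutants, and 4 lymphocyte markers summed to 3.31 to 6.52 and 0.712 to 2.01 CPM. The part of these other markers in Tgfbr2 was not tested. Of 15 ligands tested in livers, 5 were lower and 2 higher. Bmp2 fell by 4.77, Bmp10 by 4.07, Gdf2 by 2.55 and Inhbe by 2.13 on the log2 scale, while Bmp4 rose by 1.30 and Bmp5 by 0.93. Smad6 fell by 2.14, and of 9 receptor partners Arrb2 fell by 0.91 and Dab2 by 0.77. Of 10 targets and 11 other receptors tested, the lowest adjusted p was 0.057.

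**Figure D5:**
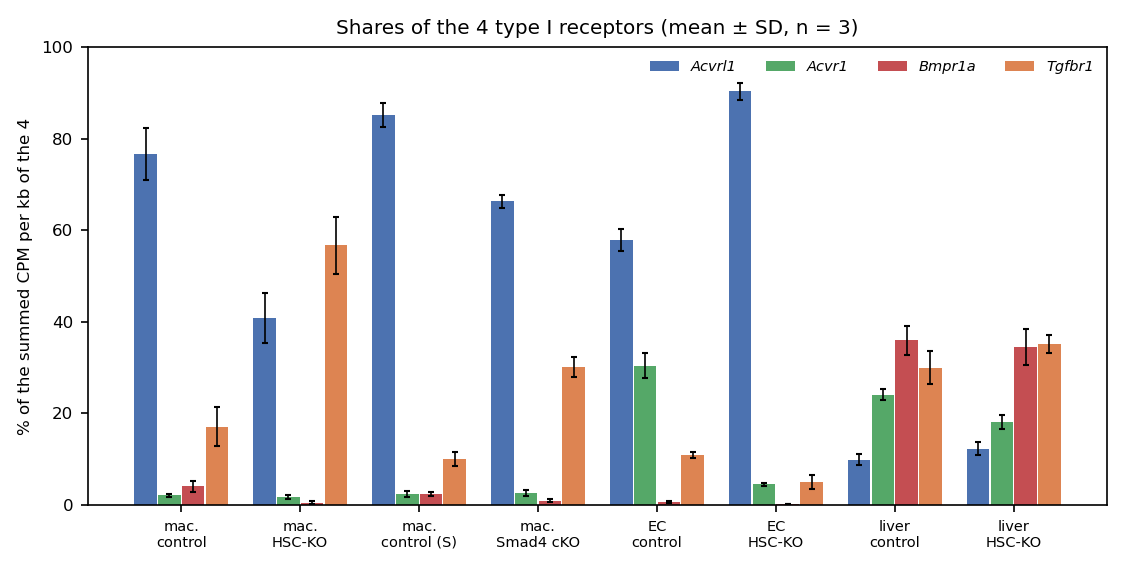
Share of each of the 4 type I receptors in their summed CPM per kb, as bars at the mean of 3 libraries with the SD, for all 8 groups, where (S) marks the controls of the Smad4 experiment. Tgfbr1 rises from 17.1 to 56.7% in Gdf2/Bmp10 HSC-KO macrophages and from 10 to 30.1% in Smad4 cKO macrophages, while Acvrl1 rises from 57.9 to 90.3% in ECs.

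The pattern of each receptor over all 24 libraries was set beside that of 20697 other genes by Pearson's r of log2 CPM, as a description, since the points share cell types and libraries. Acvrl1 was most like Psmb8 (r = 0.988) and Iqgap1 (0.986), Eng most like Arhgap23 (0.977) and Gm26236 (0.968), and Tgfbr3 most like Zfp697 (0.988) and Ephb4 (0.985). Tgfbr1 was most like Mmp13 (0.953) and 4933424M12Rik (0.942), Tgfbr2 most like Tnrc6c (0.942) and Tspyl3 (0.936), and Bmpr1a most like Rnf128 (0.979) and Pygl (0.977). Acvr1 was most like Bahd1 (0.96) and Inpp5b (0.957), Bmpr2 most like Tprgl (0.968) and Trove2 (0.967), and Acvr2a most like Insr (0.982) and Pfkm (0.973). Acvr2b had the least close neighbours, Gm43361 and Map3k14 (both 0.808).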

How the data were processed

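Counts per gene were analysed in 24 libraries, 3 a group, described as independent biological replicates in the study's methods. Across groups, 3 mice were used for ECs and macrophages alike. The authors used HISAT2 on mm10 (GRCm38) and featureCounts, and deposited raw counts, not normalized. Versions, annotation release, strand setting and handling of multiply mapped reads are not given in the sources used here. The kit is Hieff NGS Ultima Dual-mode in the labels and an Ultra RNA kit in the study's methods.

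R 4.3.3 ran edgeR 4.0.16 (limma 3.58.1). Low genes were removed by filterByExpr, with a minimum count of 10 and a total of 15, and TMM gave the scaling. The quasi-likelihood test used the 6 libraries of a comparison, or 12 for a difference of fold changes, and p-values were adjusted over all genes by Benjamini-Hochberg. A gene passed at an adjusted p below 0.05, and a DEG also had an absolute log2 fold change above 1. The SE is the fold change over the square root of F, and intervals are 95%. CPM were scaled within a comparison. Levels per kb (exon lengths from GENCODE vM21), marker sums and likeness (log2 CPM, prior count 2) used all 24 libraries together. A count of 0 allows up to 3 counts, which like other count limits covers counting error only. No 2 replicates held the same values, with at most 0.8% of counts equal in any pair.

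Receptors, lists and tests were chosen with earlier results of these data known. By rule, the text names the 10 receptors, up to 4 genes per list and comparison with the largest changes that passed, Gdf2, Bmp10, Smad4, Id1 and Id3 as checks, and the 2 genes most like each receptor. Other genes behind small counts were named after their values were seen. The fits were tested on simulated data. Alternatives were DESeq2 1.42.0, its size factors or library size alone, other filters, each library left out, a replicate block, Xist or the endothelial marker sum as a covariate, all 12 macrophage libraries, and glmTreat against a minimum fold change. Chosen after seeing the data were fits without macrophage libraries of mice that also gave ECs. Xist, read as a sign of sex, was a covariate only where its log2 CPM spanned more than 4 within a comparison of groups. This held in each of these but Smad4 cKO, and the study's methods do not give the sex of the mice. Figures were drawn in Python 3.11.15. One target gene is not reported here.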

Additional observations from a re-analysis of the deposited data

Results flagged for a closer look

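The fold change between Gdf2/Bmp10 HSC-KO and control mice differed between ECs and macrophages for 4 of the 10 receptors in edgeR's test of that difference, where 15.4% of all genes differed. The difference, as log2 fold change in ECs minus that in macrophages, was 1.63 for Acvrl1, -2.42 for Acvr1, -2.86 for Tgfbr1 and -1.91 for Eng. For Acvr1 both fold changes passed on their own, with opposite signs. The call of Eng was lost in 9 of the 12 fits that left out 1 library. It was also lost under scaling to library size alone (adjusted p = 0.056) and with the replicate block (0.069). At control EC levels, endothelial transcripts would carry 65.5 to 95.7% of Eng in control macrophages and 4.48 to 18.5% in mutants. Their part in the Eng difference was not tested. The call of Acvr1 in macrophages alone was lost in 5 of the 6 fits that left out 1 library (adjusted p 0.065 to 0.12).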

How the results depend on the processing

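With 3 libraries a group and 10 receptors, counts of calls are small, and a receptor that did not pass is not shown to be equal. Of 1315 receptor fold changes under alternatives, 52 had another sign, of 9 receptors, and 0 of these passed in either fit. In Gdf2/Bmp10 HSC-KO macrophages 4 receptors passed and 3 were DEGs. With the endothelial marker sum as a covariate 1 passed and 1 was a DEG, glmTreat against a log2 fold change of 1 gave 1 DEG, and leaving out 1 library gave 3 to 4 and 3 DEGs. In Smad4 cKO macrophages 2 passed and 2 were DEGs. With the endothelial covariate 1 passed and 1 was a DEG, glmTreat gave 1 past 0.5 and 1 past 1, and leaving out 1 library gave 1 to 2 for both. In ECs 6 passed and 5 were DEGs, glmTreat against 1 gave 2, and leaving out 1 library gave 5 to 6 and 4 to 5. In livers 2 passed, glmTreat against 0.5 gave 0, and leaving out 1 library gave 0 to 2, with 0 without control replicate 3 or mutant replicate 1. Between the control macrophages of both experiments 4 passed and 2 were DEGs. DESeq2, a filter of 1 count and a filter of 10 counts per library each gave 1 DEG, and leaving out 1 library gave 1 to 3 and 0 to 2 DEGs. For the difference between macrophage experiments 0 passed, DESeq2 gave 2, the filter of 10 counts per library gave 1, and leaving out 1 library gave 0 to 2, with 2 without Gdf2/Bmp10 HSC-KO replicate 3. For the difference between ECs and macrophages 4 passed, and leaving out 1 library gave 3 to 5. The cause of these changes was not tested. The order of levels per kb was the same in 71 of 80 places with the longest transcript as length.

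Replicate numbers in the labels were not taken as pairs. The correlation of deviations of equal numbers lay between -0.18 and 0.22 in the 4 mutant comparisons. Without unequal numbers as a reference, these values cannot exclude pairing. With the replicate block, 3 receptors passed in Gdf2/Bmp10 HSC-KO macrophages, 1 passed and 1 was a DEG in Smad4 cKO macrophages, 6 passed in ECs, 1 in livers, 2 between control macrophages with 0 DEGs, and 3 for ECs against macrophages. With library size alone as scaling, the median log2 fold change of all genes was 0.13 in Gdf2/Bmp10 HSC-KO macrophages, 0.19 in Smad4 cKO macrophages, 0.30 in ECs and -0.12 in livers, and that of Tgfbr1 in ECs was 0.20 in place of -0.10.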
